A study of Mus musculus with 6 samples.

Results

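Chemokine ligands are small secreted proteins that guide leukocytes. They bind to heparan sulphate on endothelium and matrix and act on G protein-coupled receptors of passing cells. The pattern of cysteines near the start of the mature protein divides them into the CC, CXC, CX3C and XC families, and receptor use divides them further: CCR2 ligands draw monocytes, CXCR2 ligands neutrophils, CXCR3 ligands activated T cells and NK cells, and CCR7 ligands dendritic cells and naive lymphocytes. In the diseased aorta, CCL2 and CCR2 are known for recruiting the monocytes that become wall macrophages. The ligands were taken from the deposited gene table as every protein-coding gene with a Ccl or Cxcl symbol followed by a number, together with Cx3cl1 and Xcl1. This gave 39 genes of 56748 in the table, of which 21970 are protein-coding. The platelet ligands Ppbp and Pf4 were outside this choice.

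The aortas came from Apoe-deficient mice of 6 months of age. Every mouse had received angiotensin II from an osmotic minipump for 28 days, so that no group was without it. Of the littermates compared, 3 were wild type (WT) and 3 lacked soluble ST2 (sST2-KO), the secreted decoy form of the IL-33 receptor encoded by Il1rl1. The labels call the tissue aorta and do not give the sex, the strain background, the design of the sST2 allele or the part of the aorta. Libraries held 15615658 to 17988552 counts. Levels are given in CPM, which are counts per library after TMM scaling to a shared size, and 3 counts corresponded to 0.148 to 0.239 CPM. Where 3 values of a group are listed, they stand in the order of replicates 1 to 3.

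Some libraries stood apart or did not follow their labels. Il1rl1 counts do not separate the soluble from the membrane form, and reached 2.39 to 4.86 CPM in sST2-KO and 2.81 to 9.49 CPM in WT, so the genotype is only weakly checked. Apoe reached 86.7 to 172 CPM in sST2-KO, and in WT 15.1, 11.6 and 507 CPM. sST2-KO replicate 2 held airway transcripts, with Scgb1a1 at 12598 CPM and at most 7.89 CPM elsewhere. WT replicate 3 held liver transcripts, with Alb at 6205 CPM and at most 3.83 CPM elsewhere. In WT replicate 2, 37.8% of counts were mitochondrially encoded, against 7.08% in sST2-KO replicate 2 and 18.4 to 23.7% in the other libraries. Smooth muscle markers were present in every library, summing over 6 genes to 2896 to 10222 CPM.

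Of the 39 ligands, 28 passed the filter on low counts and were tested for a difference between sST2-KO and WT. In edgeR's quasi-likelihood test 0 of them passed an adjusted p of 0.05, as did 0% of all 16377 genes tested. limma-voom likewise called 0 ligands. The edgeR adjusted p-values of the ligands ran from 0.264 to 0.981. At an unadjusted p under 0.05, 16 ligands were lower in sST2-KO and 0 higher, where 5.95% of all genes tested were lower and 5.08% higher. DESeq2 called 6 ligands lower, Ccl6, Ccl9, Ccl7, Cxcl1, Cxcl2 and Cxcl16, and 0 higher, where it called 1.04% of genes lower and 0.347% higher. Log2 changes, written as sST2-KO minus WT, were negative for 23 of the 28 ligands, against 46.5% of all genes. Their median was -1.31 over the ligands and 0.04 over all genes tested. The groups did not overlap, with every sST2-KO aorta below every WT aorta, for 13 ligands, against 10% of all genes. The reverse held for 0 ligands, against 9.09% of all genes. A ligand present mainly in WT could pass the filter through that group alone, so these counts describe the ligands that passed and not the family of 39.

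**Figure D1:**
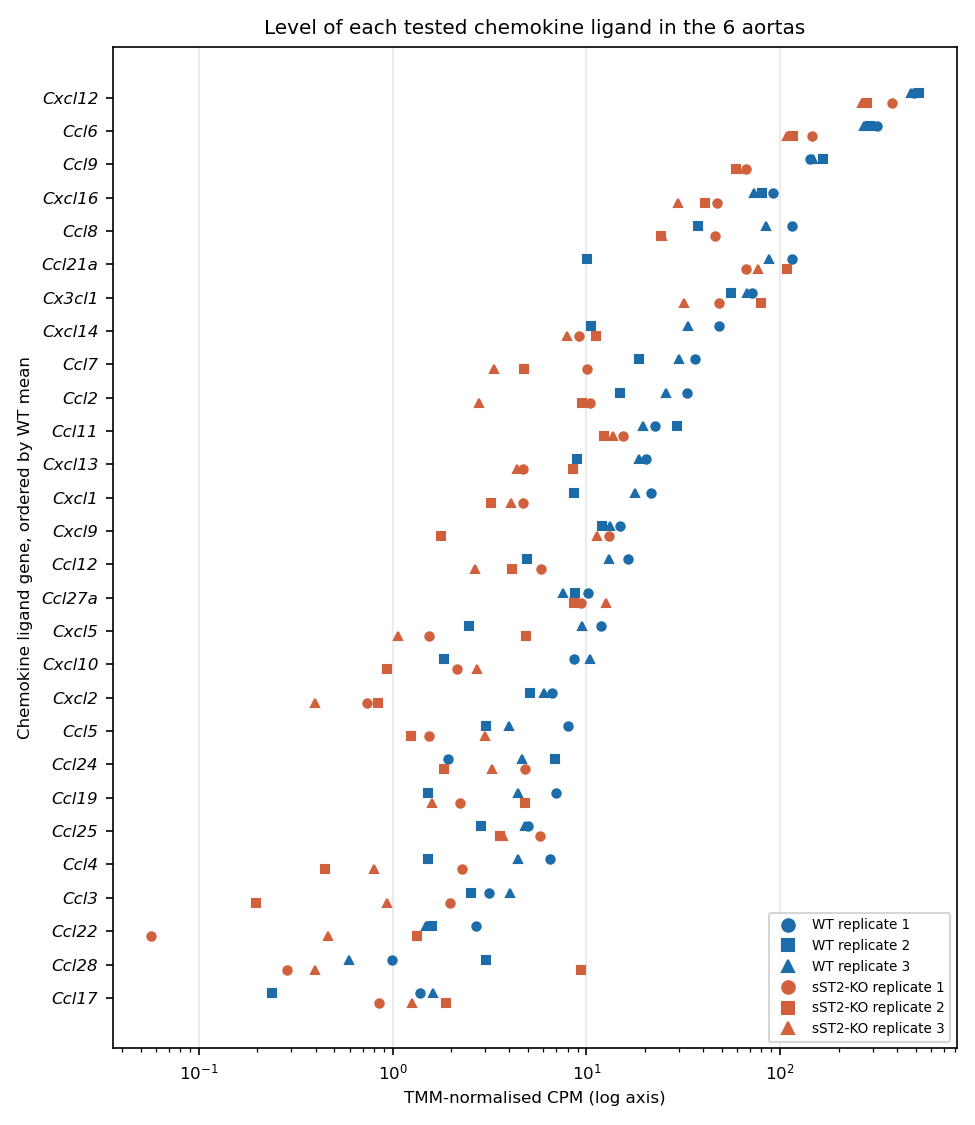
Level in CPM (log axis) of each of the 28 tested chemokine ligands, with a point for each library, WT in blue and sST2-KO in orange. Points of the groups are apart for Cxcl12, Ccl6, Ccl9 and Cxcl16 at the top, while Ccl21a has its lowest point, 10.1 CPM, in WT replicate 2.

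Summed over all 39 ligands, the WT libraries held 1631, 1310 and 1439 CPM. The sST2-KO libraries held 905, 1000.3 and 677 CPM, and the airway chemokine Cxcl17 made up 189 CPM of the sum in sST2-KO replicate 2. The groups did not overlap. Per kilobase of the gene length in the deposited table, the ligands with the highest WT means were Ccl6 at 163 ± 12.8 CPM per kilobase, Ccl8 at 154 ± 76.1, Ccl21a at 81.5 ± 62.4, Cxcl12 at 60.4 ± 2.84 and Ccl9 at 49.8 ± 4.13 (SD, n = 3 each). Of the neighbours in this order, only Cxcl12 and Ccl9 lay further apart than their SDs reached.

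Ccl2, Ccl7, Ccl8 and Ccl12 are grouped here as CCR2 ligands, which attract monocytes. The receptor use of each was not measured in these data. Their genes lie beside each other on chromosome 11 between 81926397 and 82007625 (mm39), with Ccl11 among them. All 4 were tested, each log2 change was negative, the median was -1.57, and 1, Ccl7, was called lower by DESeq2. Ccl7, also known as MCP-3, had 36.4, 18.7 and 29.9 CPM in WT and 10.1, 4.75 and 3.33 CPM in sST2-KO. The groups did not overlap, and the log2 change was -2.22 (SE 0.47; adjusted p = 0.339 in edgeR and 0.00089 in DESeq2). Ccl2, the main CCR2 ligand MCP-1, had 33.0, 14.8 and 25.8 CPM in WT and 10.4, 9.50 and 2.79 CPM in sST2-KO. Here too every sST2-KO value lay below every WT value, and the log2 change reached -1.69 (SE 0.53; edgeR adjusted p = 0.431). Ccl8 had 115, 37.5 and 84.6 CPM in WT and 46.0, 24.3 and 24.4 CPM in sST2-KO. Ccl12 had 16.4, 4.94 and 13.1 CPM in WT and 5.79, 4.11 and 2.66 CPM in sST2-KO. For both genes WT replicate 2 lay below sST2-KO replicate 1, so the groups overlapped. Their log2 changes were -1.32 (SE 0.45) and -1.45 (SE 0.51), with edgeR adjusted p-values of 0.431 and 0.435. In each of the 4 genes WT replicate 2 was the lowest WT library. Without WT replicate 1 the log2 changes of Ccl8 and Ccl12 were -0.95 and -1.10.

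Ccl3, Ccl4, Ccl5, Ccl6 and Ccl9, CC ligands that attract monocytes, macrophages and T cells, are grouped here as inflammatory CC ligands. All 5 were tested, each log2 change was negative, the median was -1.39, and 2 were called lower by DESeq2. Ccl6 and Ccl9 are CC chemokines of rodents that act on CCR1 and are made by macrophages and other myeloid cells. Their genes are neighbours on chromosome 11, Ccl9 from 83463745 to 83469462 and Ccl6 from 83478708 to 83483913, both on the minus strand (mm39). Ccl6 had 315, 292 and 269 CPM in WT and 146, 117 and 108 CPM in sST2-KO. Ccl9 had 142, 166 and 148 CPM in WT and 66.8, 58.8 and 60.7 CPM in sST2-KO. Relative to their means these were the narrowest spreads within the group, and WT and sST2-KO were well apart in both genes. The log2 changes were -1.24 for Ccl6 (SE 0.20; adjusted p = 0.294 in edgeR and 8.5e-05 in DESeq2) and -1.29 for Ccl9 (SE 0.15; adjusted p = 0.264 in edgeR and 3.7e-06 in DESeq2). Over all settings tried, the log2 change of Ccl9 ranged from -1.34 to -1.24. Among the 16377 genes tested, Ccl9 ranked 3, Cxcl2 7 and Ccl6 20 by unadjusted p.

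Ccl3, Ccl4 and Ccl5 had lower counts. Ccl3 and Ccl4 are the macrophage inflammatory proteins MIP-1alpha and MIP-1beta. Ccl3 had 3.14, 2.55 and 4.05 CPM in WT and 1.99, 0.198 and 0.931 CPM in sST2-KO. Ccl5, also called RANTES and made by T cells and NK cells among others, had 8.0, 3.03 and 4.0 CPM in WT and 1.53, 1.24 and 2.99 CPM in sST2-KO. The groups did not overlap for these genes, although for Ccl5 the gap was narrow, between 3.03 CPM in WT replicate 2 and 2.99 CPM in sST2-KO replicate 3. Ccl4 had 6.51, 1.51 and 4.41 CPM in WT and 2.27, 0.445 and 0.798 CPM in sST2-KO, with overlap at WT replicate 2. The log2 changes were -1.65 (SE 0.75) for Ccl3, -1.39 (SE 0.54) for Ccl5 and -1.82 (SE 0.77) for Ccl4, with edgeR adjusted p-values of 0.468, 0.443 and 0.453. Without sST2-KO replicate 2, whose Ccl3 and Ccl4 were lowest, the log2 changes were -1.15 for Ccl3 and -1.43 for Ccl4. Without WT replicate 1 that of Ccl5 was -0.86.

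The genes grouped here as CXCR2 ligands, which attract neutrophils, lie on chromosome 5 between 90907219 and 91053797 (mm39). Their receptor use was not measured in these data. Of the 5, Cxcl1, Cxcl2 and Cxcl5 were tested. Each log2 change was negative, the median was -2.00, and Cxcl1 and Cxcl2 were called lower by DESeq2. Cxcl2, also called MIP-2, is made quickly by activated macrophages. It had 6.62, 5.10 and 6.02 CPM in WT, from 120, 64 and 101 counts, and 0.739, 0.841 and 0.399 CPM in sST2-KO, from 13, 17 and 6 counts. The groups were far apart, and the log2 change was the most negative of the 28 tested ligands at -3.14 (SE 0.42; adjusted p = 0.264 in edgeR and 3.84e-06 in DESeq2). Cxcl1, a ligand made by stromal and endothelial cells as well as macrophages, had 21.6, 8.61 and 17.7 CPM in WT and 4.72, 3.22 and 4.06 CPM in sST2-KO. Its log2 change was -2.00 (SE 0.40; adjusted p = 0.339 in edgeR and 0.0016 in DESeq2), without overlap. Cxcl5 had 11.9, 2.47 and 9.54 CPM in WT and 1.53, 4.90 and 1.06 CPM in sST2-KO, so that sST2-KO replicate 2, the library with airway transcripts, lay above WT replicate 2. The log2 change of Cxcl5 was -1.67 (SE 0.77; edgeR adjusted p = 0.469), and -2.62 without sST2-KO replicate 2. Cxcl3 did not pass the filter, with 7, 6 and 12 counts in WT and 4, 3 and 0 in sST2-KO. Cxcl15, a ligand of lung epithelium, had at most 5 counts outside sST2-KO replicate 2, which had 22.

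The start sites of 28 of the 39 ligands were found in RefSeq's promoter table (build GRCm38.p6), in windows of 250 bases before to 50 after the start. A form of the NF-kB motif, GGG followed by any 2 bases and then TTTCC, was searched on both strands. The 28 ligands had 34 windows, since some had several. The motif occurred in 5 of the 34, those of Cxcl1, Cxcl2, Cxcl3, Ccl9 and Ccl20, and in 1.63% of all 32851 windows. The promoters of Cxcl1, Cxcl2 and Cxcl3 are shown because these CXCR2 ligand genes lie near each other and carry the same match, GGGAATTTCC. It lay 71 to 62 bases before the start in Cxcl1, 97 to 88 in Cxcl2 and 73 to 64 in Cxcl3. Of the other genes in the CXCR2 group, Cxcl15 had a window without the motif, and no window was found for Cxcl5. Capitals mark the matches to the NF-kB motif, and Cxcl1 and Cxcl2 each held another match beside the shared one. The windows are chr5:90890995-90891294 for Cxcl1, chr5:90903649-90903948 for Cxcl2 and chr5:90785851-90786150 for Cxcl3, all on the plus strand.
Cxcl1: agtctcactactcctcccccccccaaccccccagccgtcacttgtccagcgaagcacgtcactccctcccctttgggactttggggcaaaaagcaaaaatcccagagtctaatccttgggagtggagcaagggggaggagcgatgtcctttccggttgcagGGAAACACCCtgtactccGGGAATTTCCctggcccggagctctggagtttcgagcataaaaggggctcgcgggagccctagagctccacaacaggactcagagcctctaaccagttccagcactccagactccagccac
Cxcl2: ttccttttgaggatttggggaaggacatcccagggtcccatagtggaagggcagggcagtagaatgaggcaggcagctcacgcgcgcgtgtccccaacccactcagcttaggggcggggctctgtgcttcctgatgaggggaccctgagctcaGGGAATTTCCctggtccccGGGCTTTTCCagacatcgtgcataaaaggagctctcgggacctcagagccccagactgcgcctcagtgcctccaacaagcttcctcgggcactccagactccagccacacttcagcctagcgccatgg
Cxcl3: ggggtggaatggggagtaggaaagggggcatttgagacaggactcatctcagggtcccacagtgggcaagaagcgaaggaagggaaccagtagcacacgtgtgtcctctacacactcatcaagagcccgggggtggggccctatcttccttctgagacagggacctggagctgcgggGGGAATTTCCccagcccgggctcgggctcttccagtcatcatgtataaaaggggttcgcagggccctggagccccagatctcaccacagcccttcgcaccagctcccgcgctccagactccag
A match of letters is a description and not a measured binding site, and these data hold no measure of binding.

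Ccl9 and Ccl6 are shown for contrast, since they are neighbours with like changes and only the window of Ccl9 held the motif, 35 to 26 bases before its start, on the opposite strand. The windows, both on the minus strand of GRCm38.p6, are chr11:83578587-83578886 for Ccl9 and chr11:83593038-83593337 for Ccl6, and capitals again mark the match.
Ccl9: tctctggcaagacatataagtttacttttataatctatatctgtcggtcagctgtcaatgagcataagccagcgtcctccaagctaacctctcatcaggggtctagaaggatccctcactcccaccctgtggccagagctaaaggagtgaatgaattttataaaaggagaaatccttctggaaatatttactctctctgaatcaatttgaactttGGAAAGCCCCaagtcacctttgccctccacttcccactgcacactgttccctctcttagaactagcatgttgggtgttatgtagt
Ccl6: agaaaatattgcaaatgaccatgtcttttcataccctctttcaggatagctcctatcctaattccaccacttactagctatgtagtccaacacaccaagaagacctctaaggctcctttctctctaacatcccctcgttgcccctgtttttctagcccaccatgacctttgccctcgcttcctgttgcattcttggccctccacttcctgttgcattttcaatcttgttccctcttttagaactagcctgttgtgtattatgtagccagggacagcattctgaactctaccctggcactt
In a list of 8 genes of the NF-kB pathway and its feedback inhibitors, 0 passed in edgeR or DESeq2. At an unadjusted edgeR p under 0.05, 1 was lower, against 5.95% of all genes tested. Log2 changes were negative for 6, against 46.5% of all genes, and the median of the list was -0.06. The groups did not overlap for 2, both lower in sST2-KO, against 10% of all genes, and for 0 higher, against 9.09%. These were Birc3 (log2 change -0.40, SE 0.16) and Tnfaip3 (-0.46, SE 0.22), named after their values were seen, with edgeR adjusted p-values of 0.445 and 0.484. Nfkbia, the most abundant member of the list, encodes the inhibitor IkBa and was 1 of the 2 with a positive log2 change. Nfkbia had 83.8, 63.5 and 72.2 CPM in WT and 67.4, 93.2 and 104 CPM in sST2-KO. Its groups overlapped (log2 change 0.27, SE 0.21, edgeR adjusted p = 0.604).

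Cxcl9, Cxcl10 and Cxcl11 are induced by interferon and act on CXCR3. Cxcl10 had 8.66, 1.83 and 10.4 CPM in WT and 2.16, 0.940 and 2.73 CPM in sST2-KO. WT replicate 2 lay among the sST2-KO values, and the log2 change was -1.85 (SE 0.71; edgeR adjusted p = 0.443). Cxcl9 had 14.9, 12.0 and 13.3 CPM in WT and 13.0, 1.78 and 11.4 CPM in sST2-KO. Only sST2-KO replicate 2 lay far below WT, and the log2 change of -0.62 (SE 0.64; edgeR adjusted p = 0.696) was -0.14 without that library. Cxcl11 had 0 to 12 counts and was not tested. The interferon-response motif, searched on both strands as GAAA, any 2 bases and GAAA, occurred in 3 of the 34 windows, of Cxcl10, Ccl19 and Cxcl14, and in 3.44% of all windows. The window of Cxcl10 (chr5:92348840-92349139, minus strand, GRCm38.p6) is shown because it also held the AP-1 motif TGAGTCA, which occurred in 6 of the 34 windows and 5.2% of all windows. Capitals mark the interferon-response match, 213 to 204 bases before the start, and the AP-1 match, 74 to 68 bases before it.
Cxcl10: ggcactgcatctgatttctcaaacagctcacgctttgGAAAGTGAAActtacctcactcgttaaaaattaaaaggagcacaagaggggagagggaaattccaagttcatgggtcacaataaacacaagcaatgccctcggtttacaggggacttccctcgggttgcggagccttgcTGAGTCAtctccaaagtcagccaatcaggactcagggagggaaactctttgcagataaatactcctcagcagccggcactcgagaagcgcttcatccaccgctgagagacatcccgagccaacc
The AP-1 motif was also found in windows of Cxcl9, Ccl27a, Ccl27b and Ccl28.

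The ligands of CXCR4, CXCR5 and CXCR6 were all tested. Each of the 3 had a negative log2 change, the median was -1.06, and 1, Cxcl16, was called lower by DESeq2. Cxcl12, the CXCR4 ligand of fibroblasts, smooth muscle and endothelium, was the most abundant ligand in CPM. It had 493, 518 and 472 CPM in WT and 377, 282 and 263 CPM in sST2-KO, with no overlap (log2 change -0.68, SE 0.22; edgeR adjusted p = 0.431). Cxcl16, a membrane-bound ligand of CXCR6 that also takes up oxidised lipoprotein, had 91.3, 80.9 and 73.6 CPM in WT and 47.3, 41.0 and 29.5 CPM in sST2-KO. Its groups did not overlap, with a log2 change of -1.06 (SE 0.21; adjusted p = 0.339 in edgeR and 0.0155 in DESeq2). Cxcl13, which guides B cells through CXCR5, had 20.4, 8.93 and 18.7 CPM in WT and 4.72, 8.51 and 4.39 CPM in sST2-KO. The groups only just missed each other at WT replicate 2 and sST2-KO replicate 2 (log2 change -1.44, SE 0.42; edgeR adjusted p = 0.420). Cxcl14, a ligand of epithelia and fibroblasts without a settled receptor, had 48.1, 10.6 and 33.5 CPM in WT and 9.15, 11.2 and 7.98 CPM in sST2-KO. Its WT replicate 2 lay within the sST2-KO range, and the log2 change was -1.70 (SE 0.51; edgeR adjusted p = 0.422; DESeq2 adjusted p = 0.0514).

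Cx3cl1, the membrane-tethered fractalkine of endothelium and epithelium, had 71.3, 55.6 and 67.6 CPM in WT and 48.1, 80.0 and 32.0 CPM in sST2-KO. The highest value of all was in sST2-KO replicate 2, and the log2 change of -0.28 (SE 0.33; edgeR adjusted p = 0.727) was -0.70 without that library. Ccl21a, the CCR7 ligand of lymphatic endothelium, had 115, 10.1 and 87.8 CPM in WT and 66.3, 109 and 76.8 CPM in sST2-KO. A single library, WT replicate 2, was far below the other 5, and the log2 change was 0.24 (SE 0.73; edgeR adjusted p = 0.902) with it and -0.29 without it. The lymphatic markers Prox1, Lyve1, Flt4 and Pdpn summed to 178 to 212 CPM in WT and 101 to 202 CPM in sST2-KO. Lyve1 and Pdpn made up most of each sum, and Pdpn alone had 103 CPM in sST2-KO replicate 2. Prox1 had 8.99, 4.78 and 14.97 CPM in WT and 3.53 to 4.60 CPM in sST2-KO. Flt4 had 38.7, 17.5 and 30.2 CPM in WT and 20.5 to 31.9 CPM in sST2-KO. Among the WT libraries, replicate 2 was thus lowest for Prox1 and Flt4, but highest for Lyve1 at 80.1 CPM. The part of these markers in the Ccl21a result was not tested. Ccl19, the other CCR7 ligand, was also lowest in WT replicate 2, at 1.51 CPM, and had 1.51 to 7.0 CPM in WT and 1.60 to 4.80 CPM in sST2-KO (log2 change -0.59, SE 0.65). Near-identical copies of Ccl21a, Ccl19 and Ccl27a lie in the same stretch of chromosome 4, and reads could be split among them. Of these copies Ccl21b and Ccl27b had 0 counts and Ccl21d had 2.

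The eotaxins act on CCR3 and attract eosinophils. Ccl11 had 22.6, 29.5 and 19.6 CPM in WT and 15.4, 12.3 and 13.8 CPM in sST2-KO. Its groups did not overlap and, unlike in the CCR2 ligands, WT replicate 2 was the highest WT library (log2 change -0.79, SE 0.22; edgeR adjusted p = 0.416). Ccl24 overlapped, with 1.93 to 6.86 CPM in WT and 1.83 to 4.83 CPM in sST2-KO (log2 change -0.43, SE 0.57), and Ccl26 had 0 counts. The CCR4 ligands attract regulatory and helper T cells. Ccl22 had 2.70, 1.59 and 1.49 CPM in WT and 0.0568, 1.34 and 0.466 CPM in sST2-KO, the lowest from a single count (log2 change -1.61, SE 0.90; edgeR adjusted p = 0.514). Its neighbour Ccl17 did not follow it, with 0.239 to 1.61 CPM in WT and 0.852 to 1.88 CPM in sST2-KO (log2 change 0.29, SE 0.72). The groups did not overlap for Ccl22 and overlapped for Ccl17. The difference between the 2 genes was not tested.

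The remaining ligands belong mainly to epithelia, skin, gut and thymus. Ccl27a had 7.57 to 10.1 CPM in WT and 8.66 to 12.6 CPM in sST2-KO (log2 change 0.22, SE 0.27). Ccl25 had 2.87 to 5.02 and 3.56 to 5.74 CPM (log2 change 0.03, SE 0.38). The groups overlapped for both genes, and both lie over a gene on the other strand with far more counts, Il11ra1 for Ccl27a and Elavl1 for Ccl25. Whether the counting used strand is not given in the sources used here, so reads of such pairs may not be told apart. The same holds for Cxcl10 with Art3, which had far more counts than Cxcl10. It also holds for Cxcl16 with Zmynd15, but there Zmynd15 had fewer counts than Cxcl16 in every library (438 against 1656 in WT replicate 1). Ccl3 lies over a noncoding gene on the other strand as well. That gene had 13, 18 and 31 counts in WT and 9, 9 and 7 in sST2-KO. Ccl3 itself had 57, 32 and 68 counts in WT and 35, 4 and 14 in sST2-KO, fewer than that gene in sST2-KO replicate 2. Ccl28, a ligand of mucosal epithelium, had 9.35 CPM in sST2-KO replicate 2 and 0.284 to 3.03 CPM elsewhere. Its log2 change was 1.14 (SE 1.33) with that library and -2.13 without it. Cxcl17, made by airway epithelium, had 3827 counts in sST2-KO replicate 2, 4 and 2 counts in the other sST2-KO libraries and 0 in WT. Ccl20 had 50 counts in sST2-KO replicate 2 and at most 1 elsewhere. These 3 ligands were thus high in the library that held airway transcripts. Xcl1, made by NK cells and CD8 T cells, had 0 to 7 counts and Ccl1 had 0.

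**Figure D2:**
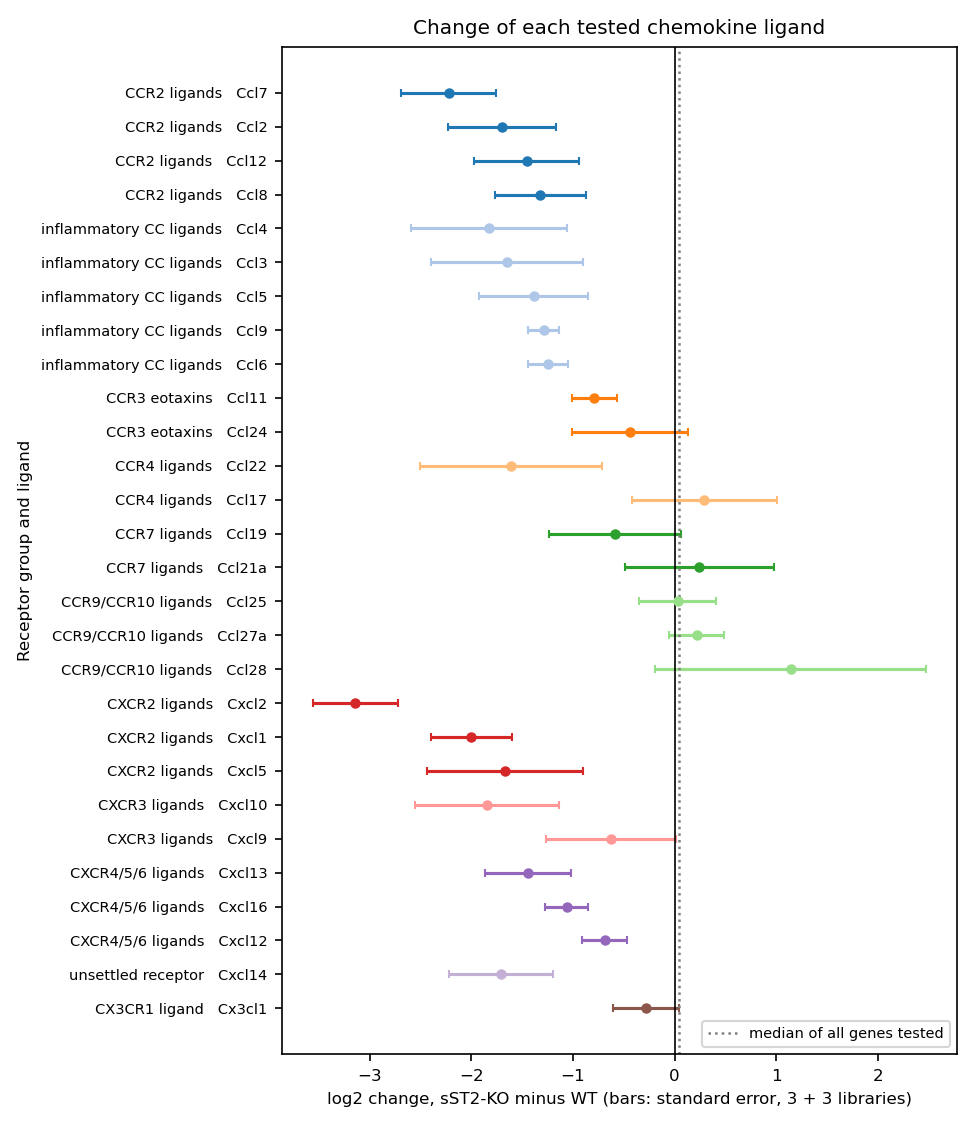
Log2 change (sST2-KO minus WT) of each tested chemokine ligand with its standard error, in colours by receptor group. The CCR2, inflammatory CC and CXCR2 ligands lie left of zero, from -1.24 for Ccl6 to -3.14 for Cxcl2, and the CCR9/CCR10 ligands lie around or right of it.

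Libraries within a group differed as well. The median over the 28 tested ligands of the deviation of log2 CPM from the gene's mean was 1.03, 0.11 and 0.59 in the WT libraries. It was -0.25, -0.51 and -0.82 in the sST2-KO libraries. WT replicate 2 was therefore nearest to sST2-KO, and in the CCR2 ligands its median of -0.02 was close to the -0.19 of sST2-KO replicate 1. In the inflammatory CC ligands it was 0.63 there, against -0.37. The number of ligands whose groups did not overlap was 20 without WT replicate 2, where 15.7% of all genes were lower without overlap. Leaving out a library can only keep or raise this number. The number at an unadjusted p under 0.05 and lower was 9 without WT replicate 1, where 4.32% of all genes were. With both WT replicate 3 and sST2-KO replicate 2 left out, the median log2 change of the tested ligands was -1.22, and DESeq2 called Ccl6, Ccl9, Ccl7 and Cxcl2 lower. In that fit it called 60 genes lower (0.432%) and 71 higher, where with all libraries it called 164 lower and 55 higher.

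**Figure D3:**
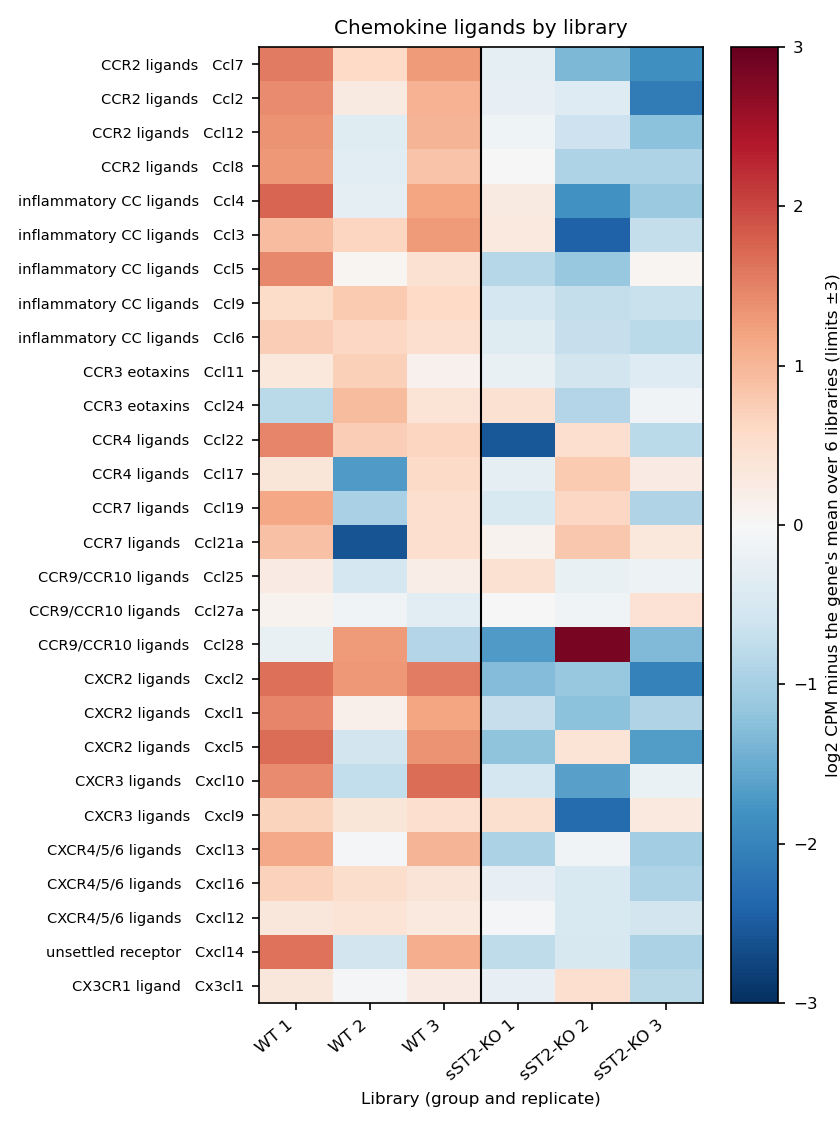
Log2 CPM of each tested ligand minus its mean over the 6 libraries, by library (columns) and receptor group (rows), with red above and blue below the mean and colour limits of 3 on either side. In some rows, as for Ccl21a, Cxcl10 and Cxcl5, WT replicate 2 is paler or blue where WT replicates 1 and 3 are red. In others, as for Ccl9, Cxcl12 and Ccl11, WT replicate 2 is the highest WT library.

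Receptors were read from a list of 17 conventional chemokine receptor genes. Of the 12 tested, 0 passed in edgeR, 10 had a negative log2 change and the median was -0.997. At an unadjusted edgeR p under 0.05, 4 were lower, and 2 were called lower by DESeq2. Of all genes tested, 46.5% had a negative log2 change, and 5.95% were lower and 5.08% higher at that unadjusted p. DESeq2 called 1.04% of genes lower. Ccr2 had 79.6, 85.4 and 72.0 CPM in WT and 39.6, 24.9 and 18 CPM in sST2-KO (log2 change -1.52, SE 0.29; adjusted p = 0.335 in edgeR and 0.0019 in DESeq2). The groups were well apart, and WT replicate 2 was not low for Ccr2 although it was the lowest WT library for each CCR2 ligand. Ccr1 had 17.9 to 22.8 CPM in WT and 3.13 to 9.55 CPM in sST2-KO (log2 change -1.59, SE 0.41; adjusted p = 0.386 in edgeR and 0.0275 in DESeq2). Cx3cr1, the receptor of fractalkine, had 23.4 to 38.0 and 7.52 to 21.1 CPM (log2 change -1.21, SE 0.39; edgeR adjusted p = 0.431). Cxcr2 overlapped, with 1.04 to 5.19 CPM in WT and 0.643 to 4.43 CPM in sST2-KO (log2 change -0.78, SE 0.86). Its highest sST2-KO value was in replicate 1, which had only 7.22 CPM of summed CXCR2 ligands. For the other ligand groups the log2 changes of the receptors were -0.76 (SE 0.36) for Cxcr4, -0.65 (SE 0.51) for Cxcr5, -1.79 (SE 0.64) for Cxcr6, -1.29 (SE 0.60) for Cxcr3, -1.38 (SE 0.84) for Ccr7, 0.57 (SE 1.13) for Ccr9 and 0.57 (SE 0.62) for Ccr10, with edgeR adjusted p-values of 0.435 to 0.843. Ccr3, Ccr4, Ccr6, Ccr8 and Cxcr1 did not pass the filter. In the list of 5 atypical receptors, which bind chemokines without G protein signalling, 4 had negative log2 changes, the median was -0.70 and 0 passed in edgeR or DESeq2, with 1 lower and 1 higher at an unadjusted p under 0.05. The most abundant, Ackr3, a scavenger of CXCL12, had 123 to 223 CPM in WT and 68.9 to 126 CPM in sST2-KO, with overlap.

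**Figure D4:**
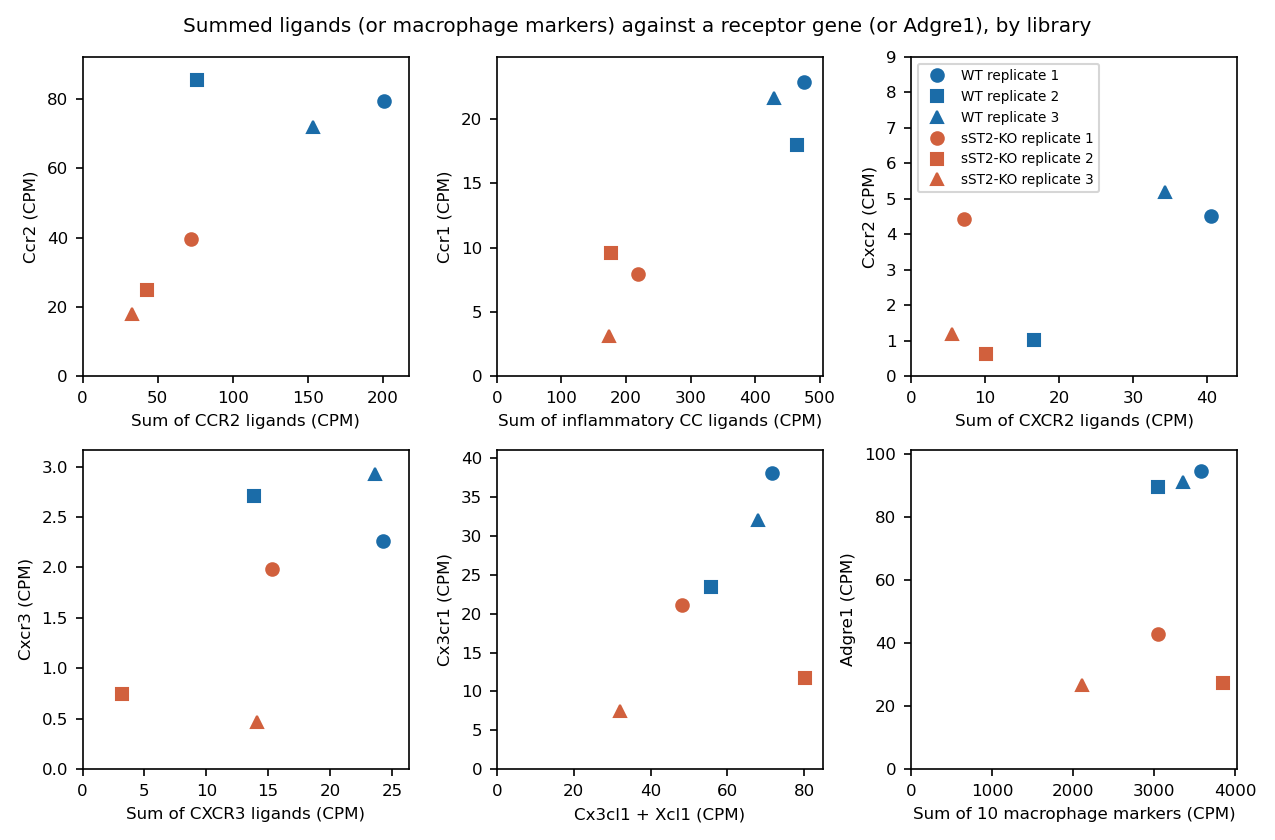
Summed CPM of a ligand group (horizontal) against CPM of a receptor gene (vertical) in each library, and, at the lower right, 10 macrophage markers against Adgre1. For the inflammatory CC ligands and Ccr1 the WT libraries lie at 429 to 475 and 17.9 to 22.8 CPM and the sST2-KO libraries at 173 to 218 and 3.13 to 9.55 CPM, while for CXCR2 ligands and Cxcr2 the groups mix on the vertical axis.

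Markers of the cells that make or follow these ligands were read beside them. In bulk tissue, fewer cells of a type and less RNA per cell cannot be told apart. Of 10 macrophage markers, 9 had a negative log2 change, against 46.5% of all genes tested. DESeq2 called 3 of these markers lower, against 1.04% of genes, and their median log2 change was -0.90. Their summed level was 3047 to 3580 CPM in WT and 2113 to 3849 CPM in sST2-KO, where Lyz2 alone gave 3152 CPM in the library with airway transcripts, and none was at 0. The per-library median of these markers, taken as for the ligands, was 0.56, 0.19 and 0.50 in the WT libraries and -0.06, -0.67 and -0.69 in the sST2-KO libraries. Adgre1, chosen after its values were seen, had 89.3 to 94.5 CPM in WT and 26.6 to 42.7 CPM in sST2-KO. The log2 changes of the 10 markers ran from -1.53 for Fcgr1 to 0.19 for Lyz2, with -1.51 (SE 0.22) for Adgre1 and -0.55 and -0.64 for the complement genes C1qa and C1qb. Of the 6 neutrophil markers 5 were tested, all with a negative log2 change and a median of -1.25. They summed to 34.8 to 143 CPM in WT and 14.8 to 66.9 CPM in sST2-KO, and Ly6g, which was not tested, had 2, 4 and 4 counts in WT and 0 in each sST2-KO library. All 6 fibroblast markers had a negative log2 change, the median was -0.63, and they summed to 6772 to 8718 CPM in WT and 3137 to 4806 CPM in sST2-KO. All 6 endothelial markers had a positive log2 change, with 0.41 as the median, and they summed to 849 to 1081 CPM in WT and 694 to 1829 CPM in sST2-KO. The T and NK cell markers had a median of -0.04 and the smooth muscle markers 0.24. Fat markers had a median of 0.99, with 1303 to 3921 CPM in WT and 1081 to 9244 CPM in sST2-KO. The 5 erythroid markers all had a negative log2 change, with -2.52 as the median. They summed to 4498, 707 and 4454 CPM in WT and 57.4 to 1132 CPM in sST2-KO. WT replicate 2 was thus the lowest WT library in erythroid markers, as in CCR2 ligands. By the per-library median it was also the lowest for fat (-1.94), neutrophil (-0.48), endothelial (-0.36) and T and NK cell markers (-0.36). The same held for macrophage (0.19) and lymphatic endothelial markers (0.004). It was the highest WT library for smooth muscle (0.69) and fibroblast markers (0.57). The part of these cell types in the ligand differences was not tested.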

How the data were processed

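Gene counts from bulk RNA sequencing of 6 aortas, 3 per group, were used. Per the labels' protocols, poly-A RNA was selected and random hexamers primed the cDNA. The table that the authors deposited holds raw counts per gene with symbols, coordinates, gene lengths and biotypes. The submitters' processing notes name build mm39. What aligned and counted the reads, with which annotation and strand setting, is not given in the sources used here. Samples were grouped by title and columns matched by library name, and 0 columns of values were left unmatched.

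Genes passing filterByExpr (minimum count 10, minimum total 15) were scaled by TMM and tested with glmQLFit and glmQLFTest in edgeR 4.0.16 (R 4.3.3), with Benjamini-Hochberg adjustment over all genes tested and a threshold of 0.05. The standard error (SE) is the log2 change divided by the square root of F. DESeq2 1.42.0 and limma-voom (limma 3.58.1) were alternatives. Only the edgeR test was tried on simulated data, and DESeq2 and limma-voom were not. Log2 CPM had a prior count of 2. That the samples of a group are separate mice rests on the stated group size alone, so p-values measure the spread between these samples. Floors cover counting error only. Every ligand that passed the filter was named, in groups by receptor or role; receptors were named where lowest in p (4) or paired with a ligand group, and other lists by up to 3 abundant members. The members and lists were chosen with earlier results of these data known, and 1 receptor and 1 erythroid marker of these lists are not reported here. Plots used matplotlib 3.10.9.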

Additional observations from a re-analysis of the deposited data

How the results depend on the processing

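In edgeR's test, 0 ligands and 0 receptors passed under RLE and upper-quartile scaling, either filter, the replicate block and without any single library. With limma-voom 0 of either passed as well. Genes past the threshold numbered 0 to 1 when each library was left out, and 0 in the other settings named. DESeq2 called 219 genes, 6 ligands and 2 receptors, and 4 ligands with the liver-bearing and airway-bearing libraries (WT replicate 3, sST2-KO replicate 2) left out together. The median log2 change of tested ligands kept its sign in every setting and ranged from -1.46 to -1.04 when each library was left out. The count of ligands at an unadjusted p under 0.05 and lower was 9 to 17, where 3.57 to 6.38% of all genes were. The count of ligands without overlap was 13 to 20 over the same omissions, where the share of all genes rose from 10% to between 13.1 and 17.3%. Leaving out a library can only keep or raise that count, so its not falling is no check of the result. Both counts were alternatives added after seeing the data. Signs turned only in ligands with an edgeR adjusted p over 0.7. Ccl25 was at -0.0038 with upper-quartile scaling and -0.22 to 0.25 with each library or both of these left out. Ccl28 was at -0.11 with the replicate block, -2.52 without both libraries, and from there up to 2.04 with a library left out (-2.13 without sST2-KO replicate 2). Ccl21a ranged from -0.29 to 0.77 and Ccl17 from -0.18 to 0.68 in that way. The replicate block gave a median of -1.27 and changed no call. Deviations of same-numbered libraries correlated at 0.15, 0.046 and -0.087 over genes, and not every library correlated best with its own number, so the numbers were not taken as pairs. Counts under 20 per library, as for Cxcl2 in sST2-KO, limit precision.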

Other observations

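The pseudogene Ccl19-ps3 on chromosome 4, outside the choice of protein-coding ligands and looked up after the values were seen, had 262, 0 and 165 counts in the WT libraries and 0, 111 and 150 in the sST2-KO libraries, in replicate order. It was thus at 0 in a library of each group, and at over 100 counts in every other library. Ccl19 itself had 127, 19 and 74 counts in WT and 39, 97 and 24 in sST2-KO.

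Ccrl2, an atypical receptor that presents chemerin, was named after its values were seen because it was the member of its list with the opposite sign. It had 7.33, 5.10 and 6.92 CPM in WT and 10.3, 8.11 and 14.4 CPM in sST2-KO, with no overlap (log2 change 0.76, SE 0.32; edgeR adjusted p = 0.453).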
